A study of Homo sapiens with 24 samples.

Results

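The data cover 35 genes of homologous recombination, the Fanconi anemia pathway and their checkpoint control, listed by name, out of 33127 genes in the count table. The list was chosen with earlier results of these data known. They were measured by RNA-seq in A549 cells, a human lung adenocarcinoma line widely used to study the response to glucocorticoids (GCs). Cells received the synthetic GC dexamethasone (dex) at 100 nM in ethanol, or ethanol vehicle (EtOH) at 0.02% by volume, for 1, 3, 5, 7, 9 or 11 hours, so both groups carried ethanol. Each of the 12 groups held 2 libraries, 24 in all, and the labels do not say whether the 2 came from separate cultures, so p-values measure the spread between libraries, which may be technical. Transcript counts were summed per gene, and the question asked at each time point was which of the genes differed between dex and EtOH.

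Homologous recombination repairs a DNA double-strand break by copying an intact sister chromatid, and it works mainly in S and G2 phase. BRCA1 and its partners prepare the resected end, BRCA2 and PALB2 prepare it for strand invasion, and proteins such as XRCC2, XRCC3 and RAD54L help the strand search and exchange. The Fanconi core complex adds ubiquitin to FANCD2 and FANCI when a replication fork meets an interstrand crosslink, and the kinases ATM and ATR signal the damage to CHEK2 and CHEK1. Many genes of these pathways are expressed most strongly in cells that are replicating DNA.

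Library totals ran from 6708864 to 13748598 counts, with a median of 10109393.5, and the EtOH and dex ranges overlapped. The keratins, ALDH1A1 and other genes typical of A549 and epithelial cells were counted for 9 of 9, with a summed level of 24245 to 30038 CPM (counts scaled to a common library size), and ALDH1A1 was the most abundant. EPCAM, an epithelial adhesion gene on this list, was low, with 31 to 134 counts a library. At 5 h, 4 of these 9 were lower and 3 higher with dex, against 11.9% and 11.2% of all rows. Fibroblast markers summed to between 7.69 and 24.3 CPM, mostly COL1A1. Their COL1A1 had 14.7 and 16.999 CPM with EtOH and 8.74 and 5.04 with dex at 5 h, and its part in the repair gene results was not tested. Endothelial markers summed to between 0 and 1.07 CPM, with CDH5 the most abundant, and blood cell markers to between 0.0991 and 0.624 CPM, with LYZ the most abundant and the defining genes CD3E and HBB at 0 in every library.

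FKBP5 and TSC22D3, direct targets of the GC receptor (GR), checked the labels. FKBP5 had 26.1 and 26.998 CPM with EtOH and 374 and 342 with dex at 5 h. TSC22D3 rose already at 1 h, from 7.13 and 9.65 CPM to 75.3 and 84.8. All 7 dex targets tested were higher at 3, 5, 7, 9 and 11 h, and 5 of the 7 at 1 h.

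After dex the summed level of the repair genes was lowest at 5 h and had come part of the way back by 11 h. Their summed counts came to 2539 and 2590 CPM of the library total in the EtOH libraries at 5 h and 1567 and 1545 CPM in the dex libraries. Over all 12 EtOH libraries this sum stayed between 2404 and 2723 CPM. With dex it was 2682 and 2358 at 1 h, 2413 and 2516 at 3 h, where both were already below the 2723 and 2609 of EtOH, 1802 and 1903 at 7 h, 1897 and 1924 at 9 h, and 2258 and 2138 at 11 h. From 5 h on no dex library reached the lowest EtOH library of any time. In bulk RNA, fewer cells that express a gene and less RNA per cell cannot be told apart.

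**Figure D1:**
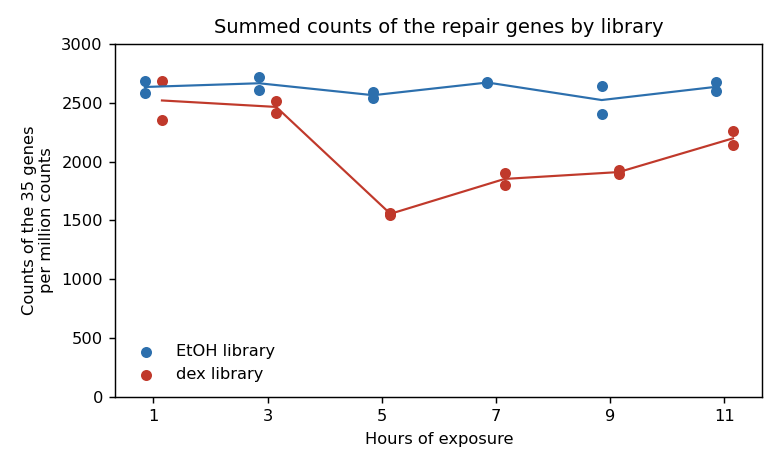
Summed counts of the 35 repair genes in CPM of the library total (y axis, from 0) against hours of exposure (x axis). Each point is 1 library, blue for EtOH and red for dex, and lines join the means of 2 libraries; the 2 dex points at 5 h, 1567 and 1545, are the lowest of the course.

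Counted gene by gene at 5 h, 26 of the 35 were lower with dex and 0 higher by edgeR's quasi-likelihood test, at a Benjamini-Hochberg adjusted p of at most 0.1 over all 19897 rows tested, where the background was 11.9% lower and 11.2% higher. The members' median log2 fold change was -0.76, against 0.00 over all rows. XRCC2 fell most, by 70.3%, and for 9 genes the log2 fold change was -1.07 or lower. At the other end ATM, ATR, RAD50 and ATRIP had log2 fold changes between -0.08 and 0.08. In all 26 lowered genes both dex libraries lay below both EtOH libraries, as they did in 29 of the 35 genes and in 27.2% of all rows.

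**Figure D2:**
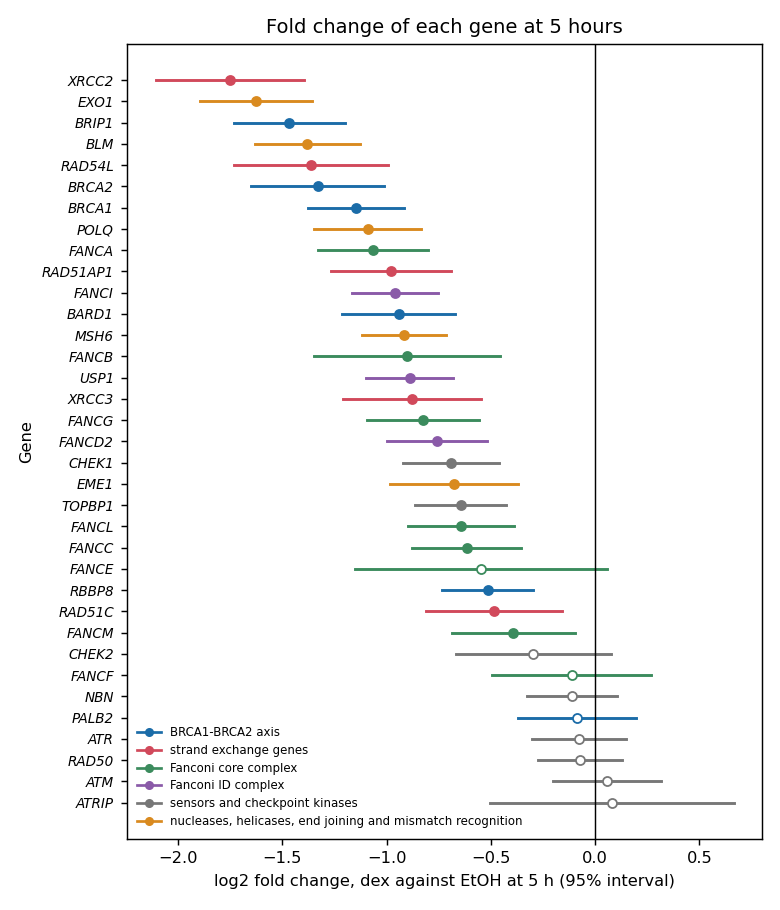
Fold changes (log2, dex against EtOH at 5 h, x axis) for each of the 35 genes (y axis, ordered), with 95% intervals from the edgeR fit of 2 against 2 libraries. Colors give the role, filled points passed the test and open points did not; 26 points are filled, all to the left of 0.

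Promoters of 2 lowered genes and of 2 genes not called are shown here, because E2F factors, which drive genes of the G1 to S transition, bind a short motif near many start sites. Each window runs from 90 bases before the RefSeq start site to 29 bases after it, 120 bases in all, on build GRCh38.p14 and on the strand of the gene. Capitals mark a match to 1 of the words TTTCCCGC, TTTCGCGC, TTTGCCGC and TTTGGCGC on either strand. XRCC2 (chr7:152676112-152676231, minus strand) and EXO1 (chr1:241848114-241848233, plus strand) are the 2 genes lowered most. RefSeq gives EXO1 a further start, whose window (chr1:241848641-241848760) holds no E2F word and is not printed. ATR (chr3:142578704-142578823, minus strand) and RAD50 (chr5:132556887-132557006, plus strand) were not called, and were picked among the uncalled genes as examples. XRCC2 and EXO1 are the exception among the lowest genes, since BRIP1, BLM, RAD54L, BRCA2, BRCA1 and POLQ, next in the order, had no E2F word in the longer window described next.
XRCC2: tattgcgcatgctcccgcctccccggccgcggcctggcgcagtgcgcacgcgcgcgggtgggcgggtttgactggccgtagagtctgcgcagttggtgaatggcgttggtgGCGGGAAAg
EXO1: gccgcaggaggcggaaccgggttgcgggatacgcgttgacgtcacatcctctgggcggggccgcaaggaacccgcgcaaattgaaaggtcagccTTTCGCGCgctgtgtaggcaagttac
ATR: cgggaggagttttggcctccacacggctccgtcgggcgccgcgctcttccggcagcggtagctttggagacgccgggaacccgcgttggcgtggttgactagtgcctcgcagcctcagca
RAD50: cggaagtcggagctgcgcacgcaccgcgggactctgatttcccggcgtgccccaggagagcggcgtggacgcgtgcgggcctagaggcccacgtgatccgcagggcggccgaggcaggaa

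Over the longer window of 250 bases before to 50 bases after a start, 33 of the 35 genes had a RefSeq promoter, and FANCI and NBN had none in the table used. An E2F word was found for 7 of the 33, or 21.2%, against 6.59% of 10232 protein-coding genes tested, counting a gene with a word in any of its windows. Counted by window, 7 of the members' 47 held one, against 3.32% of 35116 promoters of any gene. The 7 were EXO1, XRCC2, FANCA, FANCC, FANCD2, MSH6 and TOPBP1. All 7 were among the 25 genes with a promoter that fell at 5 h, and 0 of the 8 genes with a promoter that were not called held one. Since 25 of the 33 fell, most genes with a word would lie among them in any case, and the split was not tested. Among the other words searched on both strands, CCAAT was in 16 of the 33 genes, the GC box GGGCGG in 26, the cell cycle element TTTGAA in 5 and the palindromic GC response element in 0. Their shares over the tested coding genes were 43.3%, 76.7%, 14.0% and 0%. XRCC2 and EXO1 hold GGGCGG as well as an E2F word, and ATR and RAD50 hold GGGCGG only. A match is a run of letters and was not tested as a site of binding.

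Genes that assist strand exchange were lowered together. All 5 of them fell at 5 h, with a median log2 fold change of -0.98, and all 5 fell at 7 h. Over all rows 11.9% were lower at 5 h and 12.4% at 7 h. XRCC2 (chr7:152644779-152676165 on GRCh38), a recombination protein needed for strand invasion at breaks, had 23.2 and 23.998 CPM with EtOH at 5 h and 6.88 and 7.17 with dex. Its level was also lower at 3 h, with 25.1 and 26.8 CPM against 17.2 and 18.0, and it was still lower at 9 h, with 22.7 and 21.9 against 9.91 and 11.3. The libraries of the treatments were far apart at each of these times, and at 11 h they were nearer without overlapping, at 20.9 and 25.4 CPM with EtOH against 20.01 and 16.998 with dex. The log2 fold changes of XRCC2 at 3, 5, 7, 9 and 11 h were -0.57, -1.75, -1.40, -1.04 and -0.33, and the standard error at 5 h was 0.18 (edgeR, adjusted p = 4.6e-11).

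RAD54L (chr1:46247688-46278473), a motor protein that remodels DNA during strand exchange, had 21.3 and 17.999 CPM with EtOH at 5 h against 8.19 and 7.06 with dex, a log2 fold change of -1.36 ± 0.18 (SE; edgeR, adjusted p = 7.9e-08). At 11 h the 2 dex libraries, 15.4 and 19.1 CPM, lay within the range of the 2 EtOH libraries. RAD51AP1 (chr12:4538798-4560048), which stimulates strand pairing, had 34.2 and 32.6 CPM against 16.2 and 17.8 at 5 h and a log2 fold change of -0.98 ± 0.14. XRCC3 and RAD51C, which form a complex with each other, had log2 fold changes of -0.88 and -0.49 at 5 h. RAD51C was called at 5 h in 6 of the 7 fits compared. Of its 12 tested transcripts 10 were negative and 1 was called at 5 h, with values from -1.01 to 0.87. RAD51C was lowest relative to EtOH at 7 h, at -0.76. XRCC3 shares 66.1% of its exon bases with KLC1 on the opposite strand, and the use of strand in counting is not stated, so reads of the pair may be mixed. KLC1 had a log2 fold change of 0.05.

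In the BRCA1 and BRCA2 axis 5 of 6 genes fell at 5 h, against 11.9% of all rows. BRCA1 (chr17:43044295-43170245), the ubiquitin ligase that directs breaks toward recombination, had 88.1 and 87.7 CPM with EtOH and 41.2 and 38.5 with dex. Its dex level rose to 55.7 and 64.2 CPM at 7 h, 63.1 and 65.1 at 9 h and 77.9 and 80.5 at 11 h, while the EtOH libraries stayed between 87.7 and 100.7 at all times. No dex library from 5 h on overlapped an EtOH library of its own time. The fold changes of BRCA1 on the log2 scale were -1.15 ± 0.11 at 5 h and -0.26 ± 0.14 at 11 h (SE; edgeR, adjusted p = 3.7e-11 and 0.41).

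BRCA2 (chr13:32315474-32400266), the mediator of strand invasion, had 28.4 and 34.9 CPM with EtOH and 14.4 and 10.9 with dex at 5 h, a log2 fold change of -1.33 ± 0.16. It was the single member called lower at 11 h, with 35.8 and 44.9 CPM against 27.6 and 25.6 (log2 fold change -0.60 ± 0.17, edgeR, adjusted p = 0.051). A share of 1 in 35 is near the 3.27% of all rows that were lower at 11 h. The call at 11 h did not hold at a threshold of 0.05, nor without either EtOH library of 11 h. BRCA2 was also the single member whose EtOH level was called as changing with time (edgeR over the 12 EtOH libraries, adjusted p = 0.068, background 3.33%). Its mean EtOH level lay between 30.003 CPM at 9 h and 44.0 at 7 h. The call of a change with time was lost on leaving out EtOH library 1 of 3, 5 or 7 h, library 2 of 7 h or library 2 of 11 h.

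BRIP1 (chr17:61681266-61863521), the helicase that binds BRCA1, had 59.0 and 64.2 CPM with EtOH and 25.1 and 19.6 with dex at 5 h, and its log2 fold change of -1.47 ± 0.13 was the third lowest of the 35. By 9 h its treatments overlapped, with 53.3 and 39.1 CPM against 43.2 and 36.1. BARD1, the partner of BRCA1 in its ligase, had log2 fold changes of -0.94, -0.77 and -0.41 at 5, 7 and 9 h against -1.15, -0.71 and -0.58 for BRCA1. RBBP8, also known as CtIP, which starts the resection of the break, was lower at 5 h at -0.52 and just missed the threshold at 9 h (-0.30, edgeR, adjusted p = 0.101), where 4 of the 7 fits compared called it. PALB2, the bridge between BRCA1 and BRCA2, was not called at any time. It had 24.5 and 27.0 CPM with EtOH and 22.6 and 26.1 with dex at 5 h, and the 95% interval of its log2 fold change was -0.37 to 0.20.

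**Figure D3:**
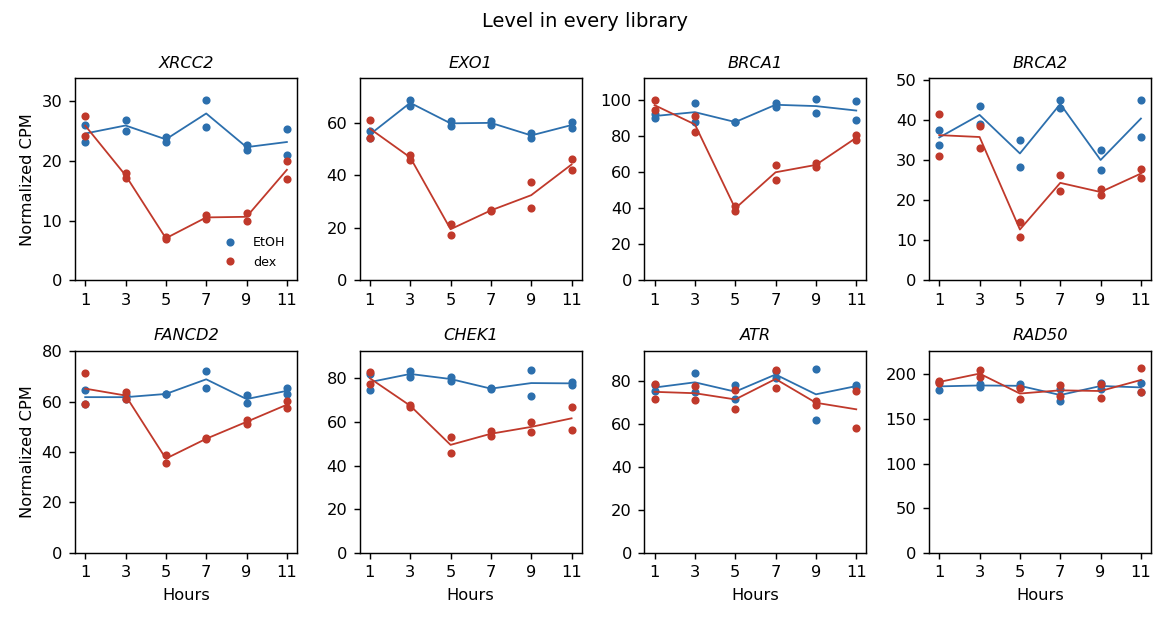
Normalized CPM (y axes, each from 0) against hours of exposure (x axes) for XRCC2, EXO1, BRCA1, BRCA2, FANCD2, CHEK1, ATR and RAD50. Points are libraries, blue for EtOH and red for dex, and lines join the means of 2; the red lines of the first 6 genes are lowest at 5 h and those of ATR and RAD50 stay near the blue ones.

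In the Fanconi core complex 6 of 8 genes were lower at 5 h, against 11.9% of all rows, with a median log2 fold change of -0.63. FANCA (chr16:89737549-89816657), a scaffold of the complex, had 55.7 and 51.2 CPM with EtOH and 22.6 and 28.6 with dex, a log2 fold change of -1.07 ± 0.13 (SE; edgeR, adjusted p = 9.6e-09). FANCG, FANCL, which is the ubiquitin ligase itself, and FANCC had log2 fold changes of -0.82, -0.64 and -0.62. FANCB had log2 fold changes of -0.90 ± 0.22 at 5 h, with 8.94 and 10.2 CPM against 5.24 and 5.04, and of -1.12 ± 0.18 at 7 h, with 14.5 and 14.2 CPM against 7.18 and 5.82. The levels of both treatments were higher at 7 h than at 5 h, and the difference between the 2 fold changes was not tested.

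FANCM, the translocase that anchors the complex on DNA, was at the edge of the test at 5 h (log2 fold change -0.39 ± 0.15, edgeR, adjusted p = 0.054) and was not called at another time. FANCE, with only 14 to 56 counts a library, was called at 7 h alone, at -0.90 ± 0.30, and FANCF at 3 h alone, with 11.3 and 10.8 CPM against 7.24 and 7.02 (-0.64 ± 0.19). At 5 h the FANCF treatments overlapped, with 11.1 and 11.7 CPM against 9.39 and 11.8. FANCA shares 22.2% of its exon bases with ZNF276 and FANCL 25.6% with VRK2, both on the opposite strand; ZNF276 had a log2 fold change of 0.05 at 5 h and VRK2 of -0.29, which passed the test as lower (edgeR, adjusted p = 0.088).

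All 3 genes around the target of the core complex were lower at 5 and at 7 h, against 11.9% and 12.4% of all rows. FANCD2 (chr3:10026414-10101930), the protein that receives the ubiquitin, had 62.9 and 63.2 CPM with EtOH and 39.0 and 35.7 with dex at 5 h, a log2 fold change of -0.76 ± 0.12 (SE; edgeR, adjusted p = 2.1e-06). It was not called at 9 h, with 59.4 and 62.6 CPM against 52.8 and 51.1, although both dex libraries were the lower ones. FANCI, its partner, fell from 326 and 318 CPM to 156 and 177 (-0.96 ± 0.10). USP1, the enzyme that takes the ubiquitin off again, had a log2 fold change of -0.89, so genes for adding and for removing the mark were lowered at the same time.

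Sensors and checkpoint kinases were the role in which most genes did not pass the test. At 5 h 2 of the 8, CHEK1 and TOPBP1, were lower, against 11.9% of all rows, and the median log2 fold change was -0.09. CHEK1 (chr11:125625136-125676255), the kinase that ATR activates, had 78.7 and 80.7 CPM with EtOH and 53.2 and 45.8 with dex (-0.69 ± 0.11, SE; edgeR, adjusted p = 5.7e-06). At 3 h it had 83.3 and 80.8 CPM against 67.9 and 67.1, a difference called in 3 of the 7 fits compared (edgeR, adjusted p = 0.091 in the fit used here). TOPBP1, the activator of ATR, had a log2 fold change of -0.65 at 5 h.

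The upstream kinases ATM and ATR were near EtOH at 5 h. At 11 h their log2 fold changes were both -0.22, without a call, beside a median of -0.24 over the 35 genes. ATR (chr3:142449235-142578826) had 71.8 and 78.3 CPM with EtOH and 75.8 and 67.1 with dex at 5 h, and the 95% interval of its log2 fold change was -0.30 to 0.15. ATM (chr11:108222484-108369102) had 93.4 and 100.2 CPM against 118.4 and 83.8, an interval of -0.20 to 0.32. In both genes the dex libraries lay on both sides of an EtOH library. RAD50 (chr5:132556019-132646344), the tether of the break-sensing MRN complex, had 186 and 189 CPM against 184 and 173, an interval of -0.28 to 0.13, and its partner NBN had a log2 fold change of -0.11. ATRIP (chr3:48446710-48467645), the binding partner of ATR, shares 27.4% of its exon bases with TREX1 on the same strand and had 23 to 67 counts a library, and its interval of -0.50 to 0.66 was the widest of these 4. CHEK2, the kinase below ATM, had 11.7 and 14.2 CPM against 11.5 and 9.75. ATM, ATR, ATRIP, CHEK2, NBN, PALB2 and RAD50 were the 7 genes not called at any of the 6 times.

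EXO1, BLM, POLQ, EME1 and MSH6, genes of resection, DNA unwinding, end joining, cleavage and mismatch recognition, were all lower at 5 and 7 h. Over all rows 11.9% and 12.4% were lower at these times. EXO1 (chr1:241847967-241895148), the exonuclease of long-range resection, had 60.8 and 58.9 CPM with EtOH and 17.3 and 21.6 with dex at 5 h, a log2 fold change of -1.63 ± 0.13 (SE; edgeR, adjusted p = 8.2e-14). Like XRCC2 it was lower at 3 h, with 68.7 and 66.7 CPM against 46.0 and 47.7. At 11 h it had 57.9 and 60.5 CPM against 42.2 and 46.1, so its dex libraries were still the lower ones, although the difference did not pass the test (-0.43 ± 0.15, adjusted p = 0.13). BLM (chr15:90717327-90816165), a helicase that resolves joined DNA molecules, had 62.1 and 62.0 CPM against 23.3 and 24.5 at 5 h (-1.38 ± 0.13). POLQ, the polymerase of theta-mediated end joining, fell from 74.9 and 73.0 CPM to 40.2 and 29.4. MSH6, a mismatch recognition protein, and EME1, a subunit of a structure-selective nuclease, had log2 fold changes of -0.92 and -0.68. EME1 shares 22.8% of its exon bases with LRRC59 on the opposite strand, and MSH6 shares 19.3% with FBXO11; their log2 fold changes were 0.13 and -0.04.

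**Figure D4:**
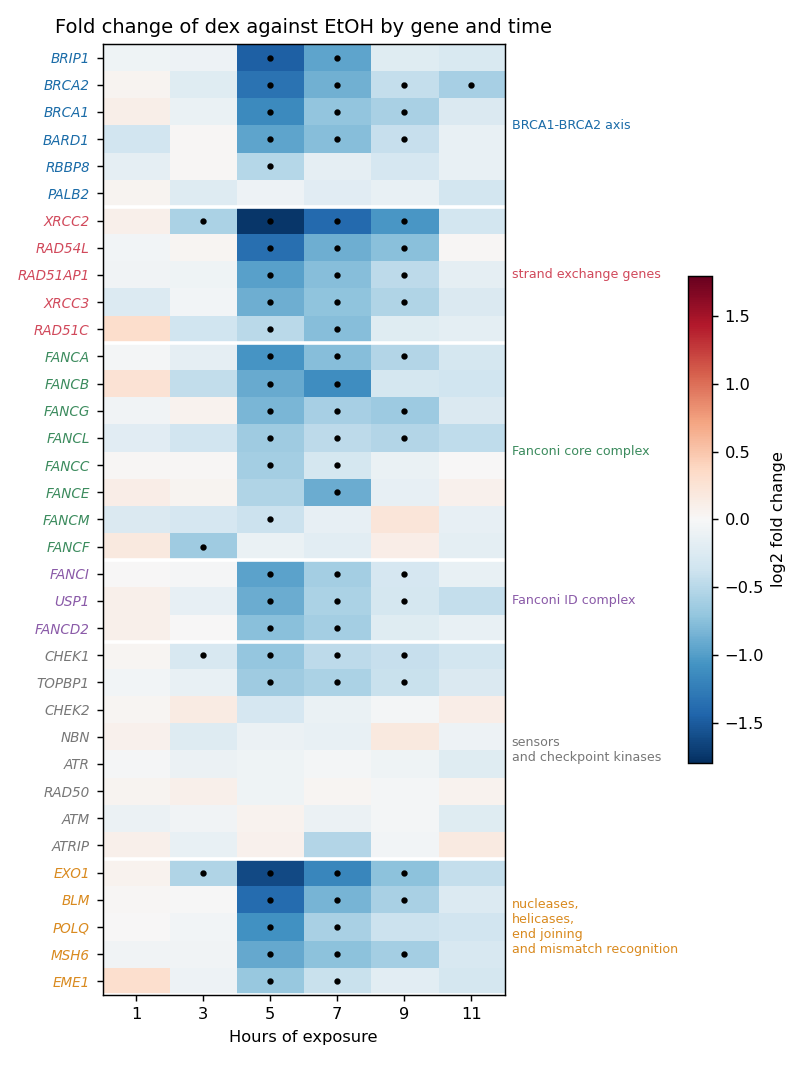
Fold changes (log2, dex against EtOH; color, blue for lower and red for higher) of each gene (rows, by role) at each time (columns, hours). Dots mark genes that passed the test; from the first to the last time the counts of dots are 0, 4, 26, 25, 17 and 1.

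Along the course, 0 of the 35 genes were lower at 1 h by edgeR, where the background was 0.342%, and 1 gene had an unadjusted p under 0.05. At 3 h 4 were lower, XRCC2, EXO1, CHEK1 and FANCF, against a background of 5.29%. XRCC2 and EXO1 were called at 3 h in all 7 fits compared, FANCF in 6 and CHEK1 in 3. Without EtOH library 1 of 3 h the count was 2, and without library 2 it was 7. At 7 h 25 genes were lower (background 12.4%), of which 24 were also lower at 5 h. RBBP8 and FANCM were called at 5 h and not at 7 h, and FANCE at 7 h and not at 5 h. No member was called higher at any time (backgrounds 0.523%, 7.66%, 11.2%, 13.4%, 9.79% and 5.31% from 1 to 11 h). Both dex libraries lay below both EtOH libraries for 4 genes at 1 h, 12 at 3 h, 31 at 7 h and 21 at 9 h, against 18.4%, 23.8%, 28.2% and 28.0% of all rows.

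At 9 h 17 genes were lower, against a background of 8.42%, and all 17 had been lower at 5 and 7 h. The count was 10 by DESeq2's own test and 11 with 1 transcript per gene. It also depended on the dex libraries of 9 h, since it was 2 without library 1 and 3 without library 2. At 11 h 1 gene was lower by edgeR, against a background of 3.27%, with 7 genes at an unadjusted p under 0.05, and 1 lower by DESeq2's own test. The count was 2 with DESeq2's size factors in the edgeR fit, 3 with no filter on low counts, 3 with the replicate number as a block, 6 with 1 fit over all 24 libraries and 0 at a threshold of 0.05. Without dex library 1 of 11 h the count was 22, without dex library 2 it was 6, and without either EtOH library of 11 h it was 0. The members' median log2 fold change was 0.03, -0.09, -0.76, -0.60, -0.31 and -0.24 from 1 to 11 h. At 11 h both dex libraries were below both EtOH libraries for 22 of the 35 genes, against 22.4% of all rows, so the low count of calls at 11 h does not show a return to EtOH.

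The difference between times was tested directly. The dex effect was larger at 5 h than at 3 h for 21 of the 35 genes (edgeR interaction over 8 libraries, background 7.55%). All 21 belonged to the 26 lowered at 5 h. Both tests use the 5 h libraries and the count asks for the sign of the 5 h fold change, so this overlap is no separate result. RAD54L went from a log2 fold change of 0.03 to -1.36, BLM from -0.01 to -1.38 and BRIP1 from -0.09 to -1.47. The effect was smaller at 11 h than at 5 h for 7 genes, against 0.588% of all rows. They were XRCC2, RAD54L, EXO1, BRIP1, BLM, BRCA1 and FANCI, whose log2 fold changes at 11 h lay above those at 5 h by 1.41, 1.36, 1.19, 1.18, 1.12, 0.88 and 0.82. Leaving out 1 library moved the count from 7 to between 0, without EtOH library 2 of 5 h or either EtOH library of 11 h, and 16, without dex library 1 of 11 h. It was 15 without dex library 2 of 11 h, 1 without library 1 of either treatment at 5 h, and 2 without dex library 2 of 5 h.

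Seen within each treatment, the EtOH level of the 26 genes lowered at 5 h had a highest mean over the 6 times that was 1.16 times the lowest at the median, with a range over the genes of 1.05 to 1.604. With dex this ratio was 1.91 at the median, with a range of 1.18 to 3.69, so the ranges overlapped. For 24 of the 26 the lowest dex level fell at 5 h and for the other two at 7 h. Over the 12 dex libraries 24 of the 35 genes changed with time by edgeR's F-test (background 21.2%).

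Levels per length, computed from transcript counts and lengths and approximate because reads were placed among isoforms in a way not stated, are given as approximate TPM. In EtOH FANCI had the highest level, 199 ± 12.2 (SD over 12 libraries), followed by MSH6 with 173 ± 7.22, RAD50 with 127 ± 7.68 and RBBP8 with 112 ± 11.8. FANCE, with 3.03 ± 0.355, and ATRIP, with 2.85 ± 0.470, had the lowest levels and did not differ beyond their spread. Genes of high and of low level were found at both ends of the order of fold changes. FANCI at 199 fell and RAD50 at 127 did not pass the test, while BRCA2 at 10.8 ± 1.65 fell and CHEK2 at 17.3 ± 1.53 did not pass it. Across the 35 genes the rank correlation of the EtOH level with the log2 fold change at 5 h was -0.017, given as a description of genes that share libraries.

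The table holds 268 transcripts of the 35 genes, 221 of which were tested, and 95 were lower at 5 h and 0 higher (background of transcript rows 7.16% lower). At 1, 3 and 7 h 0, 8 and 77 of the 221 were lower, against 0.145%, 2.78% and 7.61%, and at 9 and 11 h 27 and 2 were, against 4.36% and 1.87%. Of the 175 transcripts of the 26 lowered genes, 168 had a negative log2 fold change, and in 21 genes every tested transcript did. BRCA1 had 23 tested transcripts, all negative, from -3.05 to -0.50, with 18 called, and all 7 of EXO1 were called, from -3.02 to -1.21. XRCC2, POLQ, FANCE and FANCF are each represented by 1 transcript. None of the 46 transcripts of the 9 genes not called at 5 h was called. The transcripts of 1 gene share sequence and are not independent.

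Other genes of the pathway and of other repair pathways were taken from lists. Of 39 other homologous recombination and Fanconi genes 14 were lower and 1 higher at 5 h, against 11.9% and 11.2% of all rows. Their median log2 fold change was -0.17, beside -0.76 for the 35. The 35 genes and the lists were chosen with earlier results of these data known, so the gap between the medians is no independent result. RMI2, a partner of BLM, fell from 21.7 and 19.2 to 5.35 and 6.83 (-1.75 ± 0.19). EME2 was the 1 gene called higher, at 0.46 ± 0.18. Of 11 other genes of the ATR checkpoint 8 were lower, with a median of -0.58. CLSPN, the mediator between ATR and CHEK1, had 43.2 and 44.7 CPM against 14.97 and 12.7.

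In non-homologous end joining, which needs no sister chromatid, 3 of 14 genes were lower, with a median of -0.16 and RIF1 the lowest at -0.44. In base excision repair 5 of 19 were lower, with a median of -0.17. The 2 lowest were NEIL3, a glycosylase, at -1.83 and FEN1, a flap nuclease that also matures Okazaki fragments, at -1.13. In nucleotide excision repair 2 of 20 were lower and 1 higher, with a median of -0.03. Over all rows 11.9% were lower, so the share in nucleotide excision repair is near the background and is no result about that list. The differences between these lists were not tested.

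**Figure D5:**
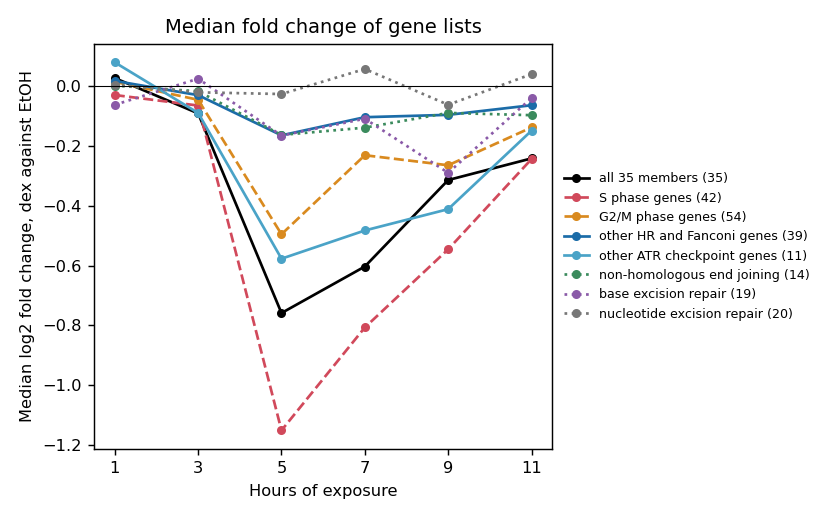
Median fold change (log2, dex against EtOH, y axis) of gene lists at each time (x axis, hours), with the number of tested genes in brackets. Lines join the medians; at 5 h the S phase list is at -1.15, the 35 repair genes at -0.76, the other ATR checkpoint genes at -0.58, and nucleotide excision repair at -0.03.

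Genes used as marks of cell cycle phase moved with the repair genes. All 42 S phase genes tested were lower at 5 h, with a median of -1.15, and the lowest values were -2.03 for DTL, which helps to destroy the licensing factor CDT1 in S phase, and -1.87 for CDC6, which licenses origins. Of 54 G2/M genes 47 were lower, with a median of -0.50. Over all rows 11.9% were lower at 5 h. The lists overlap, since BLM, BRIP1, EXO1, RAD51AP1 and USP1 are among the S phase genes. Without them the 37 other S phase genes were all lower, at a median of -1.13, and 21 of the 30 remaining repair genes were lower, at a median of -0.66. At 11 h the medians of the S phase genes and the 35 repair genes were both -0.24. Among 13 E2F factors and pocket proteins 7 were lower at 5 h, led by E2F2 at -1.88 and E2F7 at -1.82, and E2F4 had a value of 0.20 that did not pass the test. The part of cell cycle phase in the repair gene results was not tested.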

How the data were processed

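RNA-seq of A549 cells gave 24 libraries, grouped by treatment, time and replicate from the labels. The treatment text of the labels names 1 hour for every library, so the duration label was used. The paper's methods mention triplicates, and the 2 libraries per group that the labels give were used. The authors made stranded poly-A libraries, mapped their 50-base single-end reads to GENCODE 19 transcripts with Bowtie 0.12.9 (hg19 per the labels) and counted them with samtools idxstats 1.3.1. The deposited values are raw counts per transcript, not divided by depth or length. How reads shared by transcripts were placed and whether strand was used are not given in the sources used here. The row for unplaced reads holds 0 counts.

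Counts were summed per gene through GENCODE 29 (GRCh38), by transcript identifier without version. Of 119207 transcripts 110262 matched, with 94.1% of counts, and the other 8945 were kept as rows of their own. Gene coordinates are those of GRCh38, and promoters are from RefSeq on GRCh38.p14. After filterByExpr over the 12 groups, 19897 rows, 15337 of them genes and all 35 members, were tested with edgeR 4.0.16 in R 4.3.3 (TMM, robust quasi-likelihood F-test), 2 against 2 libraries at each time, with Benjamini-Hochberg adjustment over all rows and a threshold of 0.1. Each standard error is the absolute log2 fold change over the root of its F value. Normalized CPM were computed on TMM-scaled library sizes. Times were compared by interaction terms, and courses by F-tests over 12 libraries. With 2 libraries a group, the spread rests on dispersions shared between genes (biological coefficient of variation 7.29% to 13.5%). The test was tried on simulated data first.

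The members and lists were chosen with earlier results of these data known. Any member could be named. Given in full were the 6 lowest and 4 smallest fold changes at 5 h, members called higher (none), and BRCA1, BRCA2, FANCD2, FANCA, ATM, ATR, CHEK1 and RAD51AP1. From other lists at most 2 genes at each end were named, plus FKBP5 and TSC22D3; the marker genes (ALDH1A1, EPCAM, COL1A1, CDH5, LYZ, CD3E, HBB) and the exon-sharing neighbors were named as checks. Alternatives were the test of DESeq2 1.42.0, its size factors in the edgeR fit, a filter of 10 counts, no filter on low counts, 1 transcript per gene, 1 fit over all libraries, a replicate block, a threshold of 0.05, and leaving out each library. Results of some listed genes are not reported here.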

Additional observations from a re-analysis of the deposited data

Results flagged for a closer look

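Differences of the dex effect between times were singled out because the test of the difference itself passed. The effect was larger at 5 h than at 3 h for 21 of the 35 genes, and smaller at 11 h than at 5 h for 7 (edgeR interaction, adjusted p of at most 0.1). The log2 fold change at 11 h minus that at 5 h was 1.41 ± 0.25 (SE) for XRCC2, 1.36 ± 0.28 for RAD54L, 1.19 ± 0.20 for EXO1, 1.18 ± 0.20 for BRIP1, 1.12 ± 0.18 for BLM, 0.88 ± 0.17 for BRCA1 and 0.82 ± 0.16 for FANCI. The 7 calls rest on 2 libraries a group, and the count ran from 0 to 16 when 1 library was left out.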

How the results depend on the processing

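The counts of lowered genes at 5 and 7 h stayed within 1.5 times of 26 and 25 under each alternative tried, and 24 and 22 genes were called lower under all 7 fits compared at 5 and 7 h. With 1 transcript per gene the median log2 fold change moved to -0.84 at 5 h and -0.67 at 7 h, and 11 genes were lower at 9 h. With DESeq2's own test 2 genes were lower at 3 h and 10 at 9 h. With DESeq2's size factors in the edgeR fit 2 were lower at 11 h. With no filter on low counts 3 were lower at 11 h, 12 had a smaller effect at 11 h than at 5 h, and 5 changed with time in EtOH. With 1 fit over all 24 libraries 6 were lower at 11 h. At a threshold of 0.05, 0 were lower at 11 h and 0 changed with time in EtOH.

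Leaving out 1 library gave 0 to 0 lower genes at 1 h, 2 to 7 at 3 h, 24 to 26 at 5 h, 22 to 26 at 7 h, 2 to 23 at 9 h and 0 to 22 at 11 h, and 0 to 1 higher at 9 h. The medians ran from -0.06 to 0.07, -0.17 to -0.06, -0.84 to -0.74, -0.62 to -0.56, -0.42 to -0.29 and -0.31 to -0.16 from 1 to 11 h. The effect was larger at 5 h than at 3 h for 19 to 21 genes and smaller at 11 h than at 5 h for 0 to 16. Between 0 and 5 genes changed with time in EtOH and 22 to 29 with dex. A group left with 1 library was assumed to vary like the others, and the cause of these shifts was not tested.

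With the replicate number as a block 1 gene was lower at 1 h and 3 at 11 h. Same-numbered libraries did not deviate together at every time (correlations 0.135, -0.0588, 0.0260, -0.0146, 0.102 and -0.0249 from 1 to 11 h), so the numbers were not taken to pair the libraries.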
